A study of Mus musculus with 18 samples.

Results

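The 7 genes described here are Avp, Oxt, Crh and Trh, which encode the peptide hormones vasopressin, oxytocin, corticotropin-releasing hormone and thyrotropin-releasing hormone, and Sim1, Otp and Pou3f2, which encode transcription factors needed for neurons that make some or all of them. They were chosen by name out of 19937 genes with a named probeset, and each was read from its brightest single-gene probeset on 18 arrays of mouse hypothalamus. Every level below is a deposited log2 expression value, so a step of 1 is a doubling of signal.

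In the paraventricular nucleus, large neurons send axons to the posterior pituitary and release vasopressin and oxytocin into the blood, while small neurons release Crh and Trh peptide towards the anterior pituitary, where they drive the stress and thyroid axes. Vasopressin and oxytocin neurons also lie in the supraoptic nucleus, and vasopressin is made in the suprachiasmatic nucleus, the site of the circadian pacemaker. In mice, Sim1 and Otp are needed for the paraventricular and supraoptic neurons to form. Pou3f2 (Brn-2), which acts downstream of Sim1, is needed for the final differentiation of some of them. Loss of WFS1 causes Wolfram syndrome in humans, in which lack of vasopressin leads to diabetes insipidus.

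The study compared mice mutant for Wfs1, the gene of an endoplasmic reticulum membrane protein, with wild-type mice, and the strain is 129SV in the sample labels but 129S6 in the series' design text. Each array carried a genotype field (KO or WT) and a title ending (ko or wt), and groups are written here with the ending before the field: 5 arrays were ko/KO, 4 wt/WT, 5 ko/WT and 4 wt/KO. The labels thus agreed on 9 arrays and contradicted each other on 9. The kind of mutation, sex, age and number of animals per array were not analysed here, since no label used states them, and no label says that arrays are separate animals. The p-values below therefore describe array-to-array spread, which can include technical spread.

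Neither label was followed by Wfs1 itself. Its level was 8.31 ± 0.31 on arrays with the ending ko and 8.12 ± 0.25 on those with the ending wt (SD, n = 10 and 8), higher where the mutant was named. Differences below are therefore between arrays labelled in a given way, and not known differences between genotypes. Array medians lay between 7.1 and 7.19 and the interquartile range of all values on an array between 2.53 and 2.81. The array ko/WT 4 had an Xist level of 5.93, against 10.31 or more on every other array, and wt/WT 3 had a Ttr level of 12.80, against 10.62 or less on the others. Several results that rest on these arrays, though not all, are given with and without them.

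Markers of the hypothalamus were present, and so were those of a neighbouring region. Of 12 hypothalamic neuron markers, a list that includes Avp, Oxt, Crh and Trh themselves, 11 were measured. Above the upper quartile of all genes lay 6 of them: Avp, Oxt, Trh, Npy, Pmch (between 11.36 and 12.10) and Hcrt (between 9.11 and 10.06). Pomc, Kiss1, Gnrh1 and Nkx2-1 had medians of 7.51, 7.155, 6.965 and 7.625, where the median level of all genes was 7.60. Of 7 anterior pituitary markers 6 were measured and 0 lay above that quartile. Prl and Tshb stayed below the lower quartile of every array. Of 7 thalamus markers, all measured, 5 lay above the upper quartile, so the markers do not set the tissue apart from thalamus. The part of neighbouring tissue in the levels below was not tested. The arrays cover whole hypothalamus, so the paraventricular, supraoptic and suprachiasmatic sources of Avp cannot be told apart. Nor can fewer cells of a type be told apart from less RNA per cell.

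Vasopressin and oxytocin mRNA varied more between arrays than almost all genes of like level, and did so together. On the ko/KO arrays Avp was 10, 10.87, 10.26, 10.53 and 9.66, and on the wt/WT arrays 9.62, 10.59, 10.89 and 9.66. Where the labels contradict each other it was 10.08, 10.80, 10.74, 9.44 and 10.06 on the ko/WT arrays, and 10.37, 10.48, 10.39 and 10.49 on the wt/KO arrays. The groups overlapped, and only the wt/KO arrays lay close together, with an SD of 0.061 where the other groups had 0.47 to 0.65.

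Oxt, the gene next to Avp, was lowest and highest on the same arrays as Avp, though the order between differed. The array wt/WT 1, next to lowest in Avp at 9.62, had Oxt at 10.50, and without it r of the pair was 0.924. Its levels were 10.42, 11.11, 10.63, 10.75 and 10.03 on the ko/KO arrays, and 10.50, 10.88, 11.15 and 10.18 on the wt/WT arrays. On the ko/WT arrays they were 10.52, 10.75, 11.08, 10.02 and 10.40, and on the wt/KO arrays 10.81, 10.40, 10.79 and 10.64. Both genes were lowest on ko/WT 4, the array low in Xist, and highest on wt/WT 3, the array high in Ttr. The part of what sets these arrays apart in the levels of Avp and Oxt was not tested.

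Over the 18 arrays Avp spanned 1.45 log2 units (SD 0.46), a 2.73-fold range of signal, and Oxt spanned 1.13 (SD 0.34), a 2.19-fold range. Among the 1000 genes nearest in mean level, 99.8% varied less than Avp and 99.6% varied less than Oxt. Trh spanned 0.93 and varied more than 98.9% of its neighbours in level. For Pou3f2, with a span of 1.16, this share was 99.8%. The others were nearer to the middle, at 84.7% for Crh, 77.8% for Sim1 and 61.2% for Otp.

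**Figure D1:**
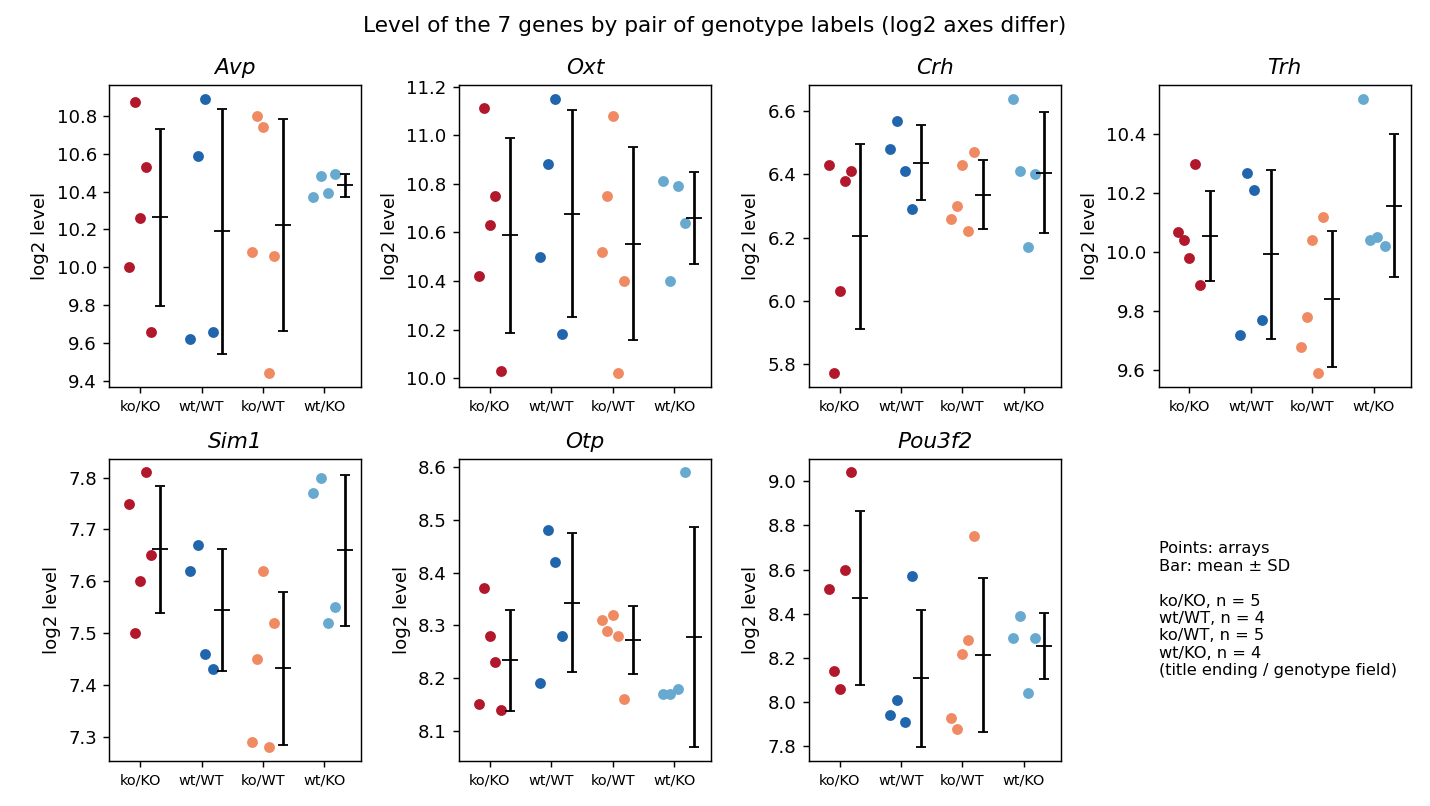
Level of each of the 7 genes (log2, vertical axes differ) on every array, by label pair with the title ending before the genotype field; points are arrays and bars the mean ± SD (n = 5, 4, 5 and 4). The groups overlap for each gene, and Avp on the wt/KO arrays lies within 10.37 to 10.49.

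Across all 18 arrays the levels of Avp and Oxt correlated at r = 0.890 (permutation test, p = 1e-05, the smallest that 100000 resamples can give) and rho = 0.858 (p = 3e-05). Without ko/WT 4 and wt/WT 1, the arrays farthest from the median of Avp, r was 0.905. In a limma regression of every gene on the level of Avp, Oxt rose by 0.66 log2 units per unit of Avp (SE 0.080, adjusted p = 0.00088 over 19936 genes). Oxt was the only gene called among them, which is 0.00502% of those tested, and its r ranked 1 of 19936. The reverse held as well: regressed on Oxt, Avp was the only gene called (0.00502%, adjusted p = 0.00048) and again ranked 1.

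How many other genes follow Oxt depended on the processing. After quantile normalization limma called 198 genes with Oxt, without the dimmest 40% of genes 165, and with the interquartile range of the array as a covariate 80. Leaving out 1 array gave 1 to 18 genes, with 18 without ko/WT 4, 5 without wt/WT 1 and 2 without wt/KO 1, wt/WT 2 or ko/WT 5. With Avp limma called 5 genes without wt/WT 1 and 2 without ko/WT 4. Avp and Oxt were called with each other in all of these settings. Without both ko/WT 4 and wt/WT 3, an alternative chosen after seeing the data, r was 0.842, the adjusted p was 0.086 for Oxt on Avp and 0.044 for Avp on Oxt.

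**Figure D2:**
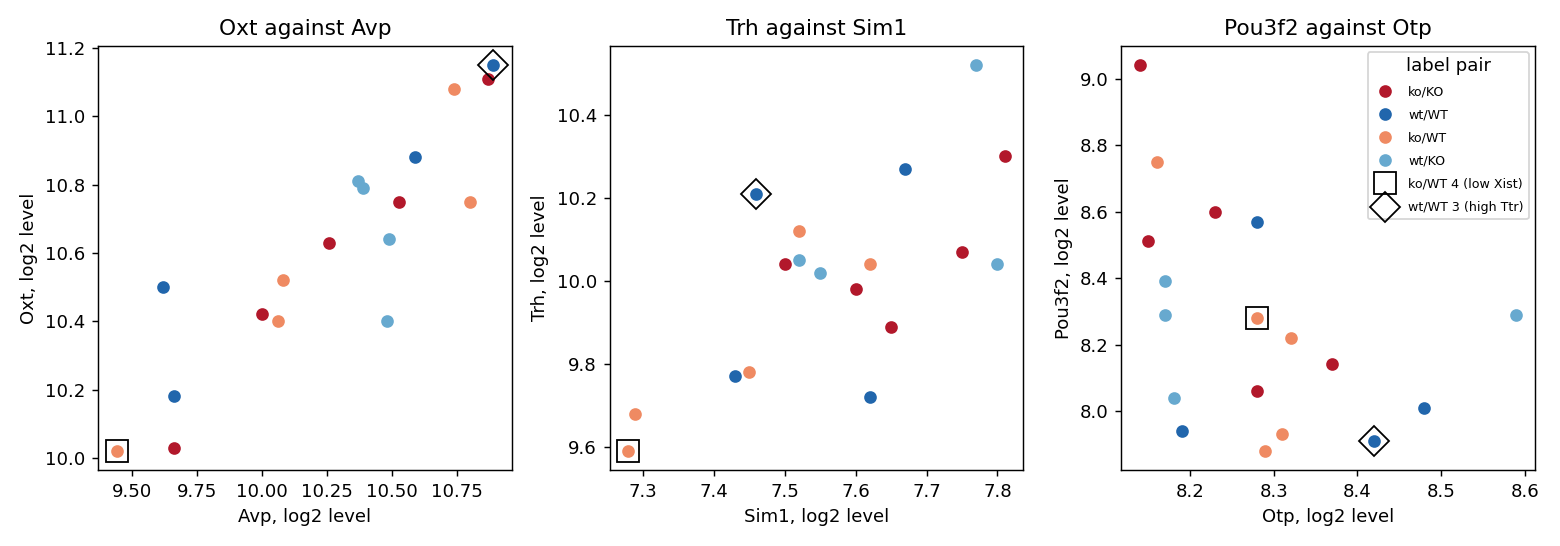
Level of Oxt against Avp, of Trh against Sim1 and of Pou3f2 against Otp (log2, one point per array, coloured by label pair); the square marks ko/WT 4 and the diamond wt/WT 3. Avp and Oxt rise together over 18 arrays (r = 0.890), Trh and Sim1 correlate at 0.680 and Otp and Pou3f2 at -0.438.

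Avp and Oxt lie side by side on chromosome 2, with Oxt on the plus and Avp on the minus strand and 0 annotated genes between them in the RefSeq table of GRCm38.p6, so their transcripts run towards each other. The 250 bases before each start, from RefSeq on GRCm38.p6, are shown because this is the pair that moved together. Avp lies at chr2:130582589-130582838 on the minus strand and Oxt at chr2:130575919-130576168 on the plus strand. Capitals mark the E-box CACGTG in Avp, the nuclear receptor element TGACCTTGA in Oxt, and the longest run present in both, CAGACATAAA.
Avp: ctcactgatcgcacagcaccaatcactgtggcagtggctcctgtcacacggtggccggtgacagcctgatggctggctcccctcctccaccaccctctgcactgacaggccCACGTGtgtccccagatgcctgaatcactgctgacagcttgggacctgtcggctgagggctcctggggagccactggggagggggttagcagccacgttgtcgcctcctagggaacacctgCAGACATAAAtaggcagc
Oxt: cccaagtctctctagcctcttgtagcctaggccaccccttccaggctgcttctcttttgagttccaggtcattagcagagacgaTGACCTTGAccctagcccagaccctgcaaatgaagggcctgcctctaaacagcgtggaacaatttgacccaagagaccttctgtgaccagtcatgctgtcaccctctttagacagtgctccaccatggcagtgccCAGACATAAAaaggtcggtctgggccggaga

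Counted back from each start, the shared run begins at position -18 in Avp and at -31 in Oxt. On either strand it was present in 18 of 32851 promoter windows of this length (0.0548%), both of these included. It was picked as the longest run common to both, so its presence in both was fixed by the choice. Whether it acts on either gene was not tested. CACGTG, at -139 in Avp, was present in 6.02% of windows and was not found in that of Oxt. TGACCTTGA, at -166 in Oxt, was present in 0.387%, and the cyclic AMP response element TGACGTCA, searched as well, in 1.55% but in neither of these. The motifs do not overlap each other. The coding exons for the carrier protein neurophysin are closely alike in Avp and Oxt, and whether probes of one gene read transcripts of the other was not tested.

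Avp and Oxt also correlated with the mean of other hypothalamic markers, though not with each of them. Against the mean of the 7 other hypothalamic neuron markers measured, r was 0.755 for Avp and 0.751 for Oxt over the 18 arrays, and 0.692 for both without ko/WT 4, given as a description. Hcrt, the peptide of lateral hypothalamic arousal neurons, had r = 0.669 with Avp and 0.738 with Oxt. For Npy these were 0.573 and 0.466, for Kiss1 0.505 and 0.510, and for Pmch 0.230 and 0.177. Pomc had 0.179 and 0.299, Nkx2-1 0.150 and 0.270, and Gnrh1 -0.041 and -0.104, so the markers did not move as one. The cortical marker Tbr1 had 0.675 and 0.586, and the means of the cortex and striatum and the anterior pituitary lists had 0.321 and 0.405 with Avp. With the mean of the 7 other hypothalamic markers subtracted on each array, r of Avp with Oxt was 0.838 (permutation p = 2e-05). Subtracting the same value from both genes can itself raise r. This value therefore does not show whether the pair moved apart from the markers.

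Suprachiasmatic markers were set beside Avp because that nucleus makes vasopressin too. The mean of 7 of them correlated at 0.530 with Avp and at 0.448 with Oxt. Nms, a suprachiasmatic peptide, had r = 0.659 with Avp and 0.767 with Oxt, and Vip had 0.459 and 0.564. Rorb, a nuclear receptor of the clock, had -0.103 and -0.319. Of the other markers listed, Grp had 0.519 and 0.304 and Six6 0.439 and 0.557. Prok2 had -0.117 and -0.123 and Lhx1 -0.224 and -0.377, so these markers did not move as one either. Nms (6.32 to 7) and Vip (6.35 to 6.92) were dim, where the median level of all genes was 7.60. The part of these markers in the shared movement of Avp and Oxt was not tested. Among brighter genes the pattern most like both belonged to Noct, which encodes nocturnin, a rhythmically expressed enzyme, with r = 0.839 to Avp and 0.878 to Oxt. After Noct came Phpt1 (0.808) and Klf16 (0.8005) for Avp, and Entpd2 (0.851) and Tex264 (0.839) for Oxt.

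Trh, which heads the thyroid axis, correlated most with Sim1 among the other 6 genes. Its levels were 10.07, 10.04, 9.98, 10.30 and 9.89 on the ko/KO arrays, and 9.72, 10.27, 10.21 and 9.77 on the wt/WT arrays. They were 9.68, 9.78, 10.04, 9.59 and 10.12 on the ko/WT arrays, and 10.52, 10.04, 10.05 and 10.02 on the wt/KO arrays. The lowest value was again on ko/WT 4, and wt/KO 1 stood 0.47 above the other arrays of its group.

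Sim1, the basic helix-loop-helix factor at the head of this developmental programme, had levels of 7.75, 7.50, 7.60, 7.81 and 7.65 on the ko/KO arrays, and 7.62, 7.67, 7.46 and 7.43 on the wt/WT arrays. On the ko/WT arrays they were 7.29, 7.45, 7.62, 7.28 and 7.52, and on the wt/KO arrays 7.77, 7.80, 7.52 and 7.55. Sim1 and Trh correlated at r = 0.680 (permutation test, p = 0.0019) and rho = 0.611 (p = 0.0084). Without ko/WT 4 and wt/KO 1 r was 0.536. In the regression over all genes the relation was not called (adjusted p = 0.406 for Sim1 on Trh and 0.298 for Trh on Sim1). Limma called 0 genes for either (0% of 19936), with 1388 genes at an unadjusted p under 0.05 for Trh and 2098 for Sim1. Sim1 ranked 49 of 19936 in r to Trh, and Trh ranked 65 in r to Sim1.

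Trh also correlated with the neighbouring hormones. With Avp r was 0.561 (permutation p = 0.015, rho = 0.496, p = 0.036) and with Oxt 0.557 (permutation p = 0.016, rho = 0.554, p = 0.017). Neither was called over all genes, with adjusted p values of 0.285 and 0.145 for Trh on these genes. Without ko/WT 4 and the other array farthest from the median, r was 0.353 with Avp and 0.436 with Oxt. Without ko/WT 4 and wt/WT 3 it was 0.414 and 0.411 (permutation p = 0.11 for both), so the relation missed an unadjusted p of 0.05 there. With ko/WT 4 alone left out, r was 0.453 for each of these pairs and also missed it. So it did with the hypothalamic marker mean subtracted (0.328 with Avp and 0.341 with Oxt). With any other 1 array left out both pairs passed that level, with r up to 0.675 with Avp and 0.600 with Oxt. After quantile normalization r was 0.5825 and 0.5831 (permutation p = 0.011 for both). Residuals on the interquartile range of the array, an alternative chosen after seeing the data, gave 0.620 and 0.640.

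The genes most like Trh were Cpne2 (r = 0.883), Srp14 (0.850) and Calcr (0.843), the last encoding the calcitonin receptor. Those most like Sim1 were AW551984 (0.853), the orphan receptor gene Gpr101 (0.823) and Hpcal4 (0.819). Sim1 also had r = 0.786 with Trhr, the receptor of thyrotropin-releasing hormone, which itself had r = 0.639 with Trh (adjusted p = 0.187 and 0.444 in the regressions on Sim1 and on Trh).

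Crh was dim and showed no clear relation to the magnocellular hormones. It lay between 5.77 and 6.64, where the lower quartile of all values on an array was 5.81 to 6.0, and how much of this signal is background was not tested. The lowest levels were 5.77 on ko/KO 2 and 6.03 on ko/KO 3, and the highest was 6.64 on wt/KO 1. Its r was -0.123 with Avp (permutation p = 0.64) and -0.115 with Oxt (permutation p = 0.66). Leaving out ko/WT 4 gave -0.215 and -0.200, and leaving out ko/KO 2 gave 0.157 and 0.213. With Sim1 r was 0.434 (permutation p = 0.071, rho = 0.568, p = 0.015) and with Trh 0.364 (permutation p = 0.14, rho = 0.460, p = 0.057). Without ko/KO 2 and ko/KO 3, the arrays farthest from its median, these were 0.652 and 0.664, and without wt/KO 1, the array highest in Crh and Trh, they were 0.360 and 0.208. Without ko/KO 2 or ko/KO 3 alone, r with Sim1 was 0.501 or 0.488, and both passed an unadjusted p of 0.05. As deviations from the means of the 4 label groups Crh and Sim1 correlated at 0.760 (permutation p = 0.0002). That permutation shuffled the deviations over all arrays and not within the groups, so its p may be too small. Limma called 0 genes with Crh (0% of 19936, 1547 at an unadjusted p under 0.05), and the most alike were Nt5c2 (0.824), Zfp280b (0.803) and Bmpr1a (0.774).

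**Figure D3:**
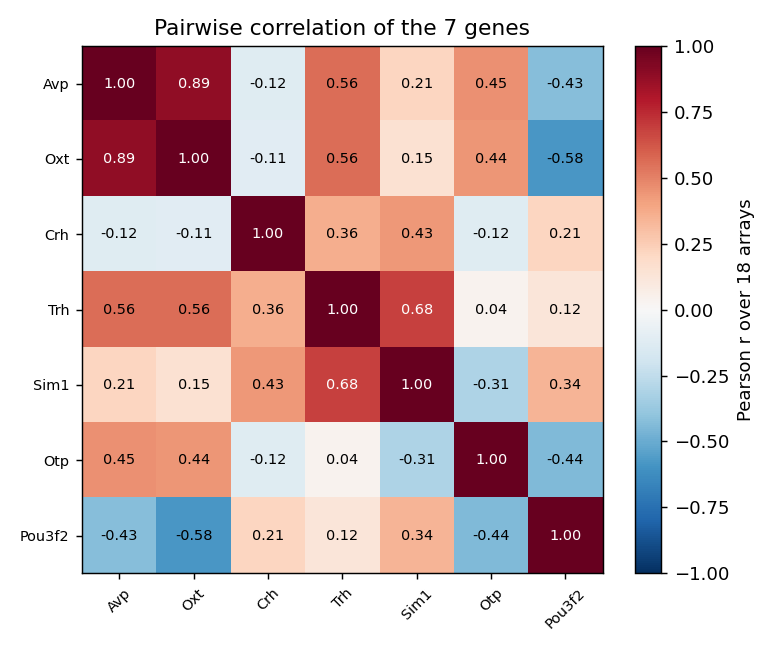
Pearson r of each pair of the 7 genes over 18 arrays, from -1 (blue) to 1 (red). Avp and Oxt form the strongest pair (0.89), followed by Trh and Sim1 (0.68), and Pou3f2 is negative with Avp, Oxt and Otp (-0.43, -0.58 and -0.44).

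Of the 21 pairs of these genes, 5 had an unadjusted permutation p of r under 0.05. Only 1 was called over all genes in both regressions, Avp with Oxt. By rho, Avp with Otp, Oxt with Otp, Crh with Sim1 and Otp with Pou3f2 passed that level as well. The last was negative, at r = -0.438 (permutation p = 0.067, rho = -0.589, p = 0.011). The fifth pair by r was Oxt with Pou3f2, the only negative one of those 5. Its r was -0.582 (permutation p = 0.011, rho = -0.535, p = 0.024) and -0.492 without ko/KO 5 and ko/WT 4. Its adjusted p was 0.032 in the regression on Pou3f2 and 0.126 in that on Oxt. Limma called 3576 genes with Pou3f2, or 17.9% of those tested, so that a call there is not particular to Oxt. Without ko/KO 5, the array highest in Pou3f2, r with Oxt was -0.450 and missed an unadjusted p of 0.05, and limma called 955 genes with Pou3f2. Without ko/WT 5 it called 2095.

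Pou3f2 and Otp varied with a large part of the array. Pou3f2, a POU-domain factor, lay between 7.88 on ko/WT 2 and 9.04 on ko/KO 5. Otp, a homeodomain factor, kept within 8.14 on ko/KO 5 and 8.59 on wt/KO 4, a span of 0.45. Limma called 4511 genes with Otp, or 22.6% of those tested, 14.9% positive and 7.68% negative. For Pou3f2 the shares were 9.62% positive and 8.32% negative. Otp correlated at r = -0.737 (rho = -0.759) with the interquartile range of all values on an array, and Pou3f2 at 0.413 (rho = 0.492), over the same 18 arrays. Means of marker lists of other tissues correlated with both genes. The mean of the anterior pituitary list had r = 0.801 with Otp and -0.601 with Pou3f2, and that of the choroid plexus list 0.417 and -0.551, and their part in these relations was not tested. The pituitary list was dim, with a mean level between 6.05 and 6.40 on the arrays. How much of its signal is background was not tested. The choroid plexus list holds Ttr, and its r was not computed without wt/WT 3, the array high in Ttr. With the interquartile range as a covariate, an alternative chosen after seeing the data, limma called 0 genes with Otp and 1703 with Pou3f2.

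The probesets of Pou3f2 gave different pictures. The brighter had an SD of 0.32 and the dimmer 0.11, with levels between 7.80 and 8.26, and they correlated at r = 0.417 (rho = 0.217) over 18 arrays. Read from the dimmer probeset, limma called 0 genes with Pou3f2, r with Oxt was -0.152 (permutation p = 0.55) and r with Avp turned to 0.108. The patterns most like the brighter probeset were those of Gtpbp4 (0.910), Atad1 (0.903) and Gpbp1 (0.8995). For Otp they were Olfr678 (0.881), the homeobox gene Hmx2 (0.874) and Mir194-1 (0.867). Otp with Avp had r = 0.453 (permutation p = 0.057, rho = 0.600, p = 0.0094) and with Oxt 0.444 (permutation p = 0.064, rho = 0.579, p = 0.014). Neither pair was called over all genes, with limma adjusted p values from 0.091 to 0.418.

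By title ending none of the 7 genes differed past the threshold. Crh differed by -0.15 (SE 0.084, limma adjusted p = 0.884), with 5.77, 6.34 and 6.47 as the lowest, median and highest level on ko arrays and 6.17, 6.41 and 6.64 on wt arrays. This rested in part on ko/KO 2, without which it was -0.096. For Trh the difference was -0.13 (SE 0.10, adjusted p = 0.884) and for Pou3f2 0.16 (SE 0.14, adjusted p = 0.884). Avp differed by -0.067 (SE 0.19), Oxt by -0.098 (SE 0.14), Sim1 by -0.056 (SE 0.072) and Otp by -0.057 (SE 0.059), with adjusted p values from 0.887 to 0.953. The exact permutation p of the single genes ran from 0.117 for Crh to 0.766 for Avp. Over all genes limma called 0 of 19937 (0%), and 923 had an unadjusted p under 0.05. Without ko/WT 4 and wt/WT 3 the difference turned to 0.10 for Avp and 0.032 for Oxt.

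By genotype field Sim1 and Trh were higher on the KO arrays, short of the threshold over all genes. Sim1 had 7.50, 7.65 and 7.81 as its lowest, median and highest level on KO arrays and 7.28, 7.46 and 7.67 on WT arrays, a difference of 0.18 (SE 0.061, limma adjusted p = 0.694, exact permutation p = 0.013 for the single gene). Trh had 9.89, 10.04 and 10.52 on KO arrays and 9.59, 9.78 and 10.27 on WT arrays, a difference of 0.19 (SE 0.095, adjusted p = 0.694, exact permutation p = 0.089). Both sets of levels overlapped. Avp differed by 0.13 (SE 0.19), Oxt by 0.011 (SE 0.14), Crh by -0.088 (SE 0.087), Otp by -0.050 (SE 0.059) and Pou3f2 by 0.21 (SE 0.13), with adjusted p values from 0.707 to 0.985. Without ko/KO 2 the difference of Crh was -0.022. Limma called 0 genes (0%), with 1386 at an unadjusted p under 0.05.

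On arrays whose labels agreed, the hormone genes of ko/KO arrays overlapped with those of wt/WT arrays. The difference was 0.074 for Avp (SE 0.27), -0.090 for Oxt (SE 0.21), -0.23 for Crh (SE 0.13) and 0.064 for Trh (SE 0.12), with limma adjusted p values from 0.502 to 0.923. It was 0.12 for Sim1 (SE 0.086), -0.11 for Otp (SE 0.084) and 0.36 for Pou3f2 (SE 0.18, adjusted p = 0.469). Without ko/KO 2 that of Crh was -0.125, and without ko/KO 5 that of Pou3f2 was 0.22. Here limma called 0 genes (0%), with 2218 at an unadjusted p under 0.05. The number of arrays, 5 and 4, limits the precision of these differences.

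Where the labels contradicted each other, Sim1 and Trh were lower on the ko/WT arrays than on the wt/KO arrays, by -0.23 (SE 0.089) and -0.32 (SE 0.13), with adjusted p values of 0.9998 for both. This is not a separate result from that by field. These arrays are part of the comparison by field, and the difference here is field WT minus field KO. Avp differed by -0.21 (SE 0.23), Oxt by -0.11 (SE 0.18), Crh by -0.069 (SE 0.091), Pou3f2 by -0.040 (SE 0.15) and Otp by -0.0055 (SE 0.089). Limma called 0 genes (0%), with 546 at an unadjusted p under 0.05. An interaction test between title ending and genotype field called none of the 7 genes, with adjusted p values from 0.943 to 0.992, and 0 of all genes (1033 at an unadjusted p under 0.05).

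Levels of Wfs1 fell in separate clusters, with 10 arrays from 7.86 to 8.07 and 8 from 8.36 to 8.72, so relations to Wfs1 are given within each side of 8.2. No label gives these sides, and they were not tested against each other. On the 10 arrays below 8.2 Avp had 9.62, 10.48 and 10.89 as its lowest, median and highest level, and on the 8 above it 9.44, 10.16 and 10.87. Oxt had 10.03, 10.70 and 11.15 below and 10.02, 10.53 and 11.11 above. Crh had 6.26, 6.41 and 6.64 below and 5.77, 6.26 and 6.47 above. The ranges of all 7 genes overlapped between the sides.

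Below 8.2 the correlation with Wfs1 ran from r = -0.425 for Pou3f2 to 0.438 for Oxt (14 relations on both sides, permutation p from 0.21 to 0.92 here). Above 8.2 it ran from -0.333 for Pou3f2 to 0.566 for Oxt (exact permutation p from 0.14 to 0.998). For Avp r was 0.202 below (rho = 0.213, permutation p = 0.57 and 0.55) and 0.507 above (rho = 0.347, exact permutation p = 0.20 and 0.40). For Oxt rho was 0.413 (permutation p = 0.23) and 0.539 (exact permutation p = 0.17), and r without the 2 arrays farthest from the median of Wfs1 was 0.6995 and 0.6407. Leaving out wt/WT 3 gave Oxt r = 0.858 below 8.2, and leaving out ko/KO 1 gave it 0.797 above, both past an unadjusted p of 0.05. Leaving out ko/KO 5 gave 0.059 below (exact permutation p = 0.88), and leaving out ko/KO 2 gave 0.395 above (exact permutation p = 0.37), so single arrays set the size of both. In the regressions on Wfs1 limma called 0 genes on either side (0%), and the adjusted p values of the 7 genes were 0.915 or more.

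**Figure D4:**
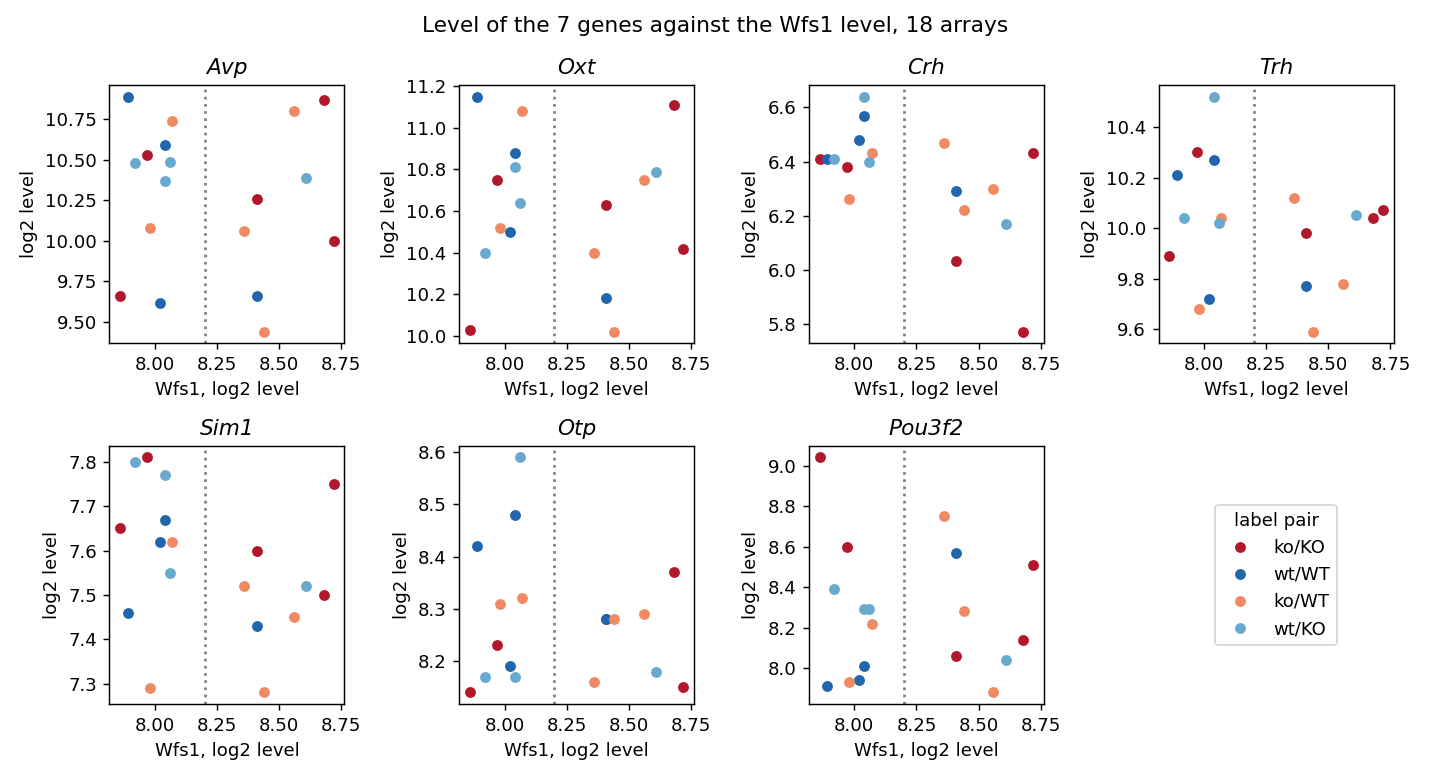
Level of each of the 7 genes against the level of Wfs1 (both log2, one point per array, coloured by label pair), with a dotted line at 8.2. Each gene covers overlapping levels on both sides, with Avp between 9.62 and 10.89 below the line and between 9.44 and 10.87 above it.

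Receptors of these peptides differed little by label. Of 11 listed receptor, binding and degradation genes 10 were measured, 3 higher and 7 lower by title ending with a median of -0.027, against 0.003 over all genes, and 0 passed the threshold. The vasopressin receptor gene Avpr1b differed by -0.12 (SE 0.078, limma adjusted p = 0.884) and the urocortin and Crh receptor gene Crhr2 by -0.077 (SE 0.068, adjusted p = 0.885). Avpr1a, the main brain vasopressin receptor, differed by -0.018 (SE 0.072), Oxtr by -0.065 (SE 0.060), Crhr1 by -0.036 (SE 0.052) and Trhr by 0.041 (SE 0.069). Crhbp, which binds and holds back Crh peptide, differed by -0.0042 (SE 0.066) by ending and by 0.16 (SE 0.057, adjusted p = 0.694) by field. None of the 10 was called with Avp, Oxt, Crh, Trh or Sim1. With Otp 2 were called positive (Avpr1b and Crhr2) and 1 negative (Trhde), where 22.6% of all genes were called, and with Pou3f2 2 positive (Trhr and Trhde) and 1 negative (Trhr2), where 17.9% were.

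Genes that process and pack prohormones were measured for 11 of 12. By title ending 6 were higher and 5 lower, with a median of 0.0083 and 0 past the threshold, and Cadps and Qpct had the smallest p, at 0.042 (SE 0.051) and 0.046 (SE 0.068). By field 10 were higher and 1 lower, with a median of 0.052 (-0.0056 over all genes) and 0 called. Pcsk1n, an inhibitor of the convertase Pcsk1, had r = 0.627 with Avp and 0.788 with Oxt (adjusted p = 0.284 and 0.084). It was not typical of the list, whose median r was -0.053 to Avp and -0.078 to Oxt, against 0.043 and 0.065 over all genes. Pam, which amidates vasopressin, oxytocin, Crh and Trh peptides, had r = -0.053 with Avp, 0.655 with Crh and 0.687 with Sim1 (adjusted p = 0.949, 0.569 and 0.382). With Pou3f2 4 of the 11 were called positive and 1 negative, where 17.9% of all genes were called.

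The other regulators of development and peptide transcription were measured for 13 of 13. By title ending 9 were higher and 4 lower, with a median of 0.032 and 0 called, and Nr3c2, the mineralocorticoid receptor gene, and Pou3f4 had the smallest p, at 0.11 (SE 0.051, adjusted p = 0.884) and 0.082 (SE 0.051, adjusted p = 0.884). Creb3l1, a transcription factor that in rats drives Avp transcription, had r = 0.582 with Avp and 0.617 with Oxt (adjusted p = 0.301 and 0.140). The median r of the list was 0.010 to Avp and -0.121 to Oxt, against 0.043 and 0.065 over all genes. Arnt2, the partner of Sim1, kept between 9.56 and 9.73 and had r = 0.022 with Sim1 (adjusted p = 0.987). None of the 13 was called with Avp, Oxt, Crh, Trh or Sim1, and 3 were called with Otp, namely Crem (-0.772) and Nr3c2 (-0.706) negative and Esr2 (0.662) positive, where 22.6% of all genes were called and 0 with the interquartile range as a covariate. With Pou3f2 2 were called, Pou3f4 (0.714) and Nr3c2 (0.699), where 17.9% of all genes were.

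Peptides, enzymes and a few other genes listed as co-expressed in paraventricular and supraoptic neurons were measured for 14 of 14. On whole hypothalamus their signal cannot be assigned to those neurons. By title ending 7 were higher and 7 lower, with 0 called, and the peptide gene Cck and the glutamate transporter gene Slc17a6 had the smallest p, at 0.15 (SE 0.064, adjusted p = 0.884) and 0.10 (SE 0.050, adjusted p = 0.884). By field 12 were higher and 2 lower, with a median of 0.061 (-0.0056 over all genes), and 0 were called. Where the labels contradict 4 were higher and 10 lower, with a median of -0.0995 (0.0055 over all genes), and 0 were called. The difference there is field WT minus field KO on part of the same arrays, so it is not a separate result. Gal, which encodes galanin, a peptide of vasopressin neurons, had r = 0.647 with Avp, 0.637 with Oxt and 0.738 with Trh (adjusted p = 0.273, 0.110 and 0.281). Pdyn, the source of dynorphin, an opioid peptide of vasopressin neurons, had r = 0.598 with Avp and 0.558 with Oxt (adjusted p = 0.285 and 0.162). The median r of the list to Avp was 0.267, against 0.043 over all genes, and to Trh 0.279, against -0.037. Pcsk1n, Pam, Creb3l1, Arnt2, Crem, Esr2, Gal and Pdyn were picked for naming with their values in view.

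**Figure D5:**
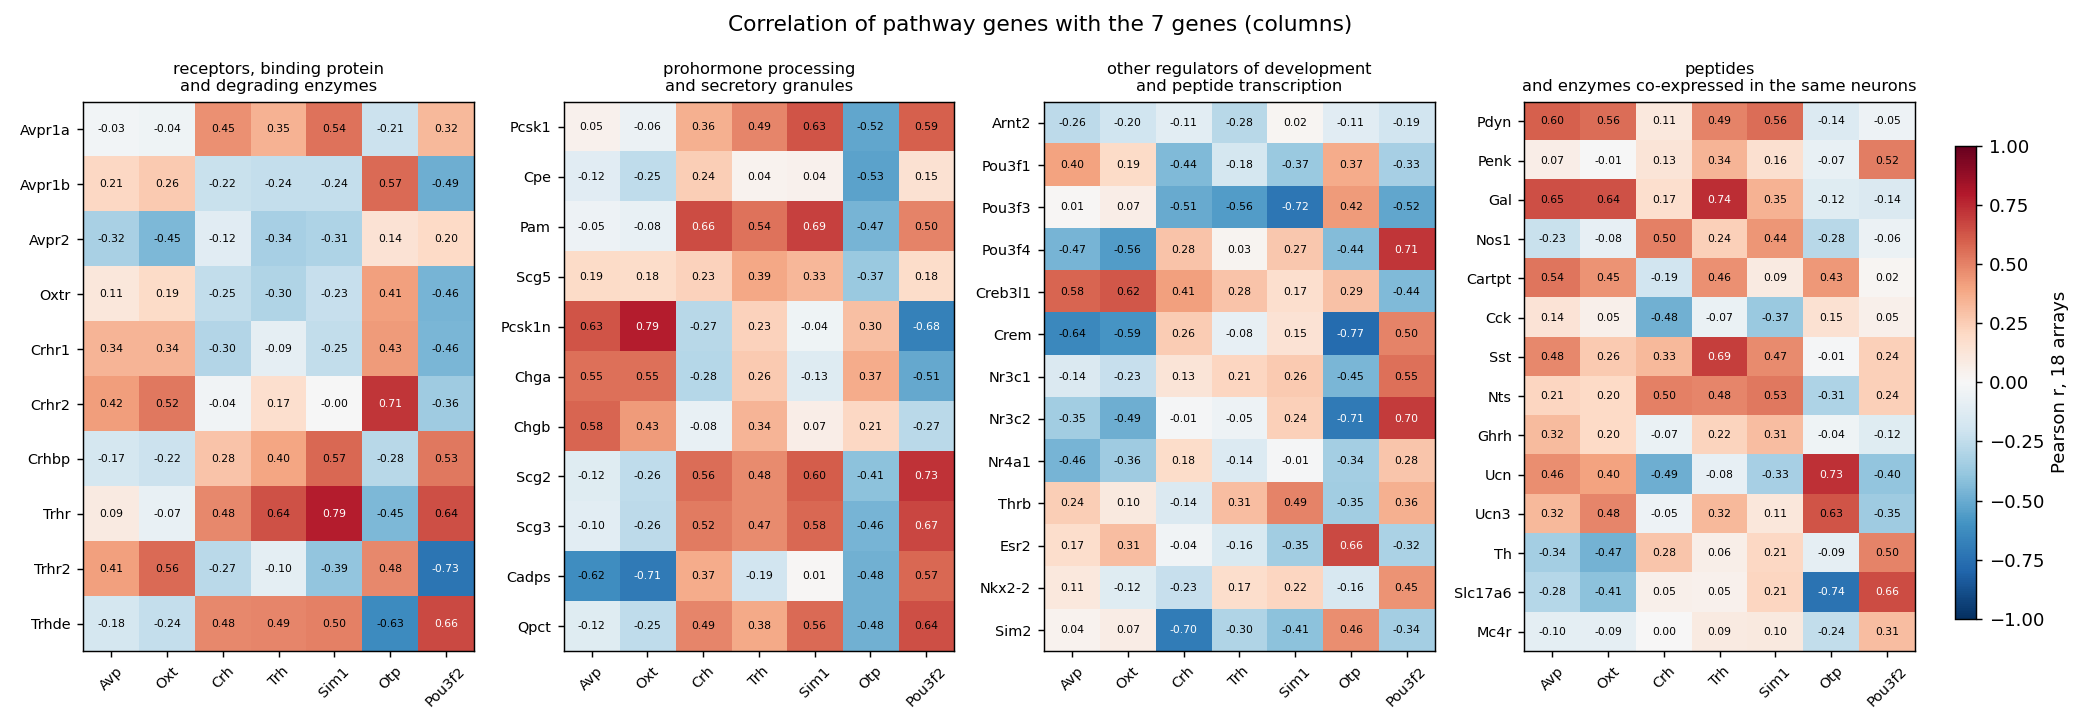
Pearson r over 18 arrays between genes of 4 pathway lists (rows) and the 7 genes (columns), from -1 (blue) to 1 (red). Gal, Pdyn and Creb3l1 are red under Avp and Oxt (0.56 to 0.65), and Trhr is red under Sim1 (0.79).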

How the data were processed

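RNA of mouse hypothalamus was measured on 18 expression arrays. The authors deposited log2 expression values, 1 per probeset and array. RMA and MAS5 appear, without role or version, in the submitters' processing notes. The scale was read from the values (1.11 to 14.54). Of 34760 probesets 21640 had 1 gene symbol, 1321 several and 11799 none, and the brightest per gene left 19937 genes.

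Differences and regressions on each gene's level were fitted over all genes with limma 3.58.1 (R 4.3.3), with Benjamini-Hochberg adjustment at 0.05. Correlations used two-sided permutation tests (100000 resamples, exact below 10 arrays), unadjusted, with the limma adjusted p over all genes beside them. The fits were tested on simulated data. Of the 7 genes 6 had a RefSeq promoter.

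The genes and lists were chosen with earlier results of these data known. Named beyond the 7 were, for each, the 3 brighter-than-median genes with the highest r, and per list the 2 with the smallest p by title ending, plus Avpr1a, Oxtr, Crhr1, Trhr and Crhbp. Arrays below and above 8.2 in Wfs1 were not compared as groups.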

Additional observations from a re-analysis of the deposited data

Results flagged for a closer look

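Within the 4 label groups 28 sets of values were examined for a value far from the others of its group, by Dixon's criterion, which flags about 1 in 20 sets by chance, and 4 stood out. Pou3f2 was 8.57 on wt/WT 4, against 8.01 or less on the other wt/WT arrays. Otp was 8.16 on ko/WT 5, against 8.28 or more on the other ko/WT arrays, and 8.59 on wt/KO 4, against 8.18 or less on the other wt/KO arrays. Trh was 10.52 on wt/KO 1, against 10.05 or less on the others. No cause was tested for any of these.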

How the results depend on the processing

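No paired analysis was possible because the labels give no replicate numbers that groups share. No gene was called by any label under any alternative. Counts of genes called with a gene's level moved most. For Oxt limma called 198 after quantile normalization, 165 without the dimmest 40% of genes, 80 with the interquartile range of the array as a covariate and 10 without ko/WT 4 and wt/WT 3, where Avp had 0 and the pairs called both ways fell to 0. Without the dimmest 40% Trh and Sim1 had 2 each, and with the covariate Crh had 1. Otp had 2358 after quantile normalization, 2334 without the dimmest genes and 0 with the covariate. Pou3f2 had 1703 with the covariate and 0 from its dimmer probeset. Leaving out 1 array gave 1 to 5 genes for Avp, 1 to 18 for Oxt, 0 to 2 for Crh, 0 to 1 for Trh, 0 to 1 for Sim1 and 955 to 3946 for Pou3f2. Pairs with an unadjusted permutation p of r under 0.05 numbered 10 as deviations from label-group means, where the permutation ignored the groups and p may be too small. They numbered 3 without ko/WT 4 and wt/WT 3, and 4 to 8 with 1 array left out (8 without wt/KO 4). Of the 7 genes, those at that level with Wfs1 then numbered 0 to 2 below 8.2 (2 without wt/WT 3) and 0 to 1 above it (1 without ko/KO 1). None of the differences and correlations that changed sign had been called. Without ko/WT 4 and wt/WT 3 the difference was 0.10 for Avp and 0.032 for Oxt by ending, 0.068 for Oxt where labels agree and 0.028 where they contradict, and r of Trh with Otp was -0.018. After quantile normalization Oxt differed by -0.015 by field and r of Otp with Wfs1 above 8.2 was 0.168. With the hypothalamic marker mean subtracted, r was -0.161 for Avp with Sim1, -0.034 for Avp with Otp, -0.202 for Oxt with Sim1, -0.0026 for Oxt with Otp, 0.234 for Crh with Otp, -0.087 for Trh with Otp and 0.093 for Otp with Pou3f2. On residuals from the interquartile range r of Crh with Otp was 0.039, and with the dimmer probeset r of Avp with Pou3f2 was 0.108. With 1 array left out, differences ran from -0.166 to 0.022 for Avp by ending, from -0.063 to 0.085 for Oxt by field, and, where labels agree, from -0.116 to 0.307 for Avp, from -0.255 to 0.068 for Oxt and from -0.027 to 0.156 for Trh. Where they contradict they ran from -0.147 to 0.0093 for Crh, from -0.041 to 0.099 for Otp, from -0.238 to 0.028 for Oxt and from -0.175 to 0.043 for Pou3f2. Likewise r ran from -0.215 to 0.157 for Avp with Crh, from -0.200 to 0.213 for Oxt with Crh, from -0.065 to 0.242 for Oxt with Sim1, from -0.272 to 0.012 for Crh with Otp and from -0.086 to 0.188 for Trh with Otp. With Wfs1 below 8.2 it ran from -0.198 to 0.505 for Avp, from -0.0052 to 0.271 for Trh, from -0.146 to 0.181 for Sim1 and from -0.695 to 0.061 for Pou3f2, and above 8.2 from -0.659 to 0.175 for Crh and from -0.428 to 0.428 for Otp. The cause of these changes was not tested. The covariate, the dimmer probeset and leaving out both arrays were chosen after seeing the data.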
